A study of Mus musculus with 9 samples.

Results

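A set of 9 genes of the red blood cell program was followed in leukemic cells of the mouse: the 4 adult hemoglobin genes Hba-a1, Hba-a2, Hbb-bs and Hbb-bt, the heme enzyme gene Alas2, the carbonic anhydrase gene Car2, the transcription factor genes Gata1 and Klf1, and the erythropoietin receptor gene Epor. They were selected by gene name, as 9 of the 55401 genes counted in 9 RNA-Seq libraries, after values of these data had been seen. Their levels and differences are therefore given as a description, and calls of the fit over all genes are counted for them without being read as evidence.

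The cells were H9M cells, an acute myeloid leukemia model made from lineage-negative bone marrow of C57BL/6-Ly5.1 mice with a gammaretroviral vector for Meis1 and Hoxa9 and puromycin resistance. All groups carried this vector, a Cas9-made knockout and an FGB-D lentiviral color code, and each clone was derived from a single cell. A mix of 24 clones was transplanted, together with radio-protective helper bone marrow, into lethally irradiated C57Bl6/J recipients, which also keep blood cells of their own and of the helper marrow. Thawed splenocytes were sorted as CD45.1+ EGFRt bright cKit+ CD11b dim/neg cells of 1 color code. Pre-malignant samples all came from mouse #15, which was sacrificed early and before overt leukemia: clone 43BC-D, clone 38BC-D and clone 33BC-D. The same clones made up the de novo expanded group at the endpoint, with 38BC-D of mouse #13, 43BC-D of mouse #14 and 33BC-D of mouse #17. The stably expanded group was 1 clone, 34BC-D, from those 3 endpoint mice. Since 1 mouse gave all pre-malignant libraries, pre-malignant state and mouse cannot be told apart. As no other group held clone 34BC-D, the stably expanded state and clone cannot be told apart either. The deposited columns are tied to a group but not to a mouse or clone, so libraries were numbered 1 to 3 within each group. Whether libraries of the same number in different groups came from the same mouse or clone is not known from the labels.

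During red cell formation, the erythropoietin receptor keeps progenitors alive, GATA1 and KLF1 switch on the erythroid genes, and ALAS2 starts heme synthesis in the mitochondrion. Heme is then built into hemoglobin, a tetramer of 2 alpha and 2 beta chains. In the spleen of the mouse, unlike that of most adult humans, red cells are also made, and old red cells are removed by red pulp macrophages. Globin RNA is among the most abundant RNA of maturing red cells.

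The hemoglobin genes come as near-identical pairs, and their sequences are shown because they limit what a short read can tell. In the GENCODE M1 transcripts, matched by gene identifier, the coding sequences of Hba-a1 and Hba-a2 differed at 1 of 429 bases, and those of Hbb-bs and Hbb-bt at 1 of 444 bases. The stretches around that base, counted from the first base of the start codon, were bases 344 to 418 of the alpha pair and 380 to 444 of the beta pair, with the differing base in capitals:
Hba-a1: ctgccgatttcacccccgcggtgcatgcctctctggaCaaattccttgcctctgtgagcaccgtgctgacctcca
Hba-a2: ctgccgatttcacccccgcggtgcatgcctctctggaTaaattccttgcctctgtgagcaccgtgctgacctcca
Hbb-bs: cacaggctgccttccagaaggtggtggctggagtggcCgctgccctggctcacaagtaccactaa
Hbb-bt: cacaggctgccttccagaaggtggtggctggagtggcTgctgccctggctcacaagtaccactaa
Of the 38-base windows of the coding sequence, the length of 1 read here, 90.3% were the same in both alpha genes and 93.1% in both beta genes. Over the whole transcripts, 69.9% of the windows of Hba-a1 occurred in Hba-a2 and 89.6% of those of Hba-a2 in Hba-a1, against 53.0% for Hbb-bs in Hbb-bt and 59.0% in reverse. The split of reads within each pair is therefore uncertain, and reads that matched both copies may have been left out of the counts of both genes. How such reads were counted is not given in the sources used here.

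Upstream windows of RefSeq (GRCm38.p6, the build of the files) were found for 8 of the 9 genes, Car2 having no entry. They were searched, over the 250 bases before the start and on both strands, for GATA letters (AGATAA and AGATAG, and the same with T in place of the first A), a CACC box (CCACACCC), a CCAAT box and a TATA-like box (TATAAA or CATAAA). Matches of different motifs may share bases. GATA letters were present in 6 of the 8 windows, with Gata1 and Hbb-bt lacking them, and in 26.5% of all 32851 windows of the same length. The CACC box was found in 1 window, that of Hbb-bs, 93 bases before the start, and in 3.2% of all windows. CCAAT was found in 5 of the 8, namely Klf1 and the 4 hemoglobin genes, and in 33.8% of all. TATA-like letters were found in Alas2 and Hbb-bt and in 20.9% of all windows. Shown are the windows of Alas2 and of Hba-a2, the hemoglobin gene with the longest stretch free of exons, up to the first base of the files' gene model and with the matches in capitals. The first is chrX:150547167-150547374 and the second chr11:32296242-32296488, both on the plus strand:
Alas2: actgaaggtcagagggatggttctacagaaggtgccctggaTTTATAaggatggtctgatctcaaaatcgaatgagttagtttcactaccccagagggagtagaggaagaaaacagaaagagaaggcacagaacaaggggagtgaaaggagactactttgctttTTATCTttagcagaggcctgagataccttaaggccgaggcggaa
Hba-a2: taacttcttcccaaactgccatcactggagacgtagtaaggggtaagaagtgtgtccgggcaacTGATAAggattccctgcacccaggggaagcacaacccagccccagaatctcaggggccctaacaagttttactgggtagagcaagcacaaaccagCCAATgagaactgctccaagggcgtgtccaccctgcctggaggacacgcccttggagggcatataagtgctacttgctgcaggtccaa
The window of Hba-a1 shared an unbroken run of 247 of its 250 bases with that of Hba-a2, its GATA letters beginning 183 bases and those of Hba-a2 186 bases before the start. In Alas2 the GATA letters began 86 bases before the start, in Klf1 80 and in Epor 54. These matches are descriptions of the letters, and binding was not measured.

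All 9 genes were at low levels. Libraries held 10379739 to 15551196 reads on genes, and 1 read was thus less than 0.1 CPM (reads per 1000000 reads on genes). A count of 0 allows up to 3 reads, which is between 0.193 and 0.289 CPM depending on the library, and intervals and limits given here cover counting error only. By RPKM (CPM divided by gene length in kilobases), the only scale on which genes were compared with each other, Hbb-bs had the highest mean over the 9 libraries, 6.66 ± 5.74 (SD, n = 9), with a range from 0.502 to 16.6. Its rank by RPKM among all 55401 genes lay between 2670 and 14334. Next came Hba-a1 at 2.64 ± 2.26 RPKM, Hba-a2 at 1.89 ± 1.52, Hbb-bt at 1.37 ± 1.25, Alas2 at 1.37 ± 1.41, Car2 at 0.937 ± 0.482 and Klf1 at 0.558 ± 0.274, with Epor at 0.0469 ± 0.0561 and Gata1 at 0.0370 ± 0.0510 far below. Hbb-bs stood above Hba-a1 in 9 of 9 libraries and Klf1 above Epor in 9 of 9. The other neighbours in this order changed places between libraries: Hba-a1 was above Hba-a2 in 6 of 9, Hba-a2 above Hbb-bt in 7, Hbb-bt above Alas2 in 4, Alas2 above Car2 in 5, Car2 above Klf1 in 7 and Epor above Gata1 in 5. The alpha genes shared more of their transcript windows than the beta genes. If shared reads were left out, alpha levels were lowered more, so the order of alpha against beta genes is uncertain.

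**Figure D1:**
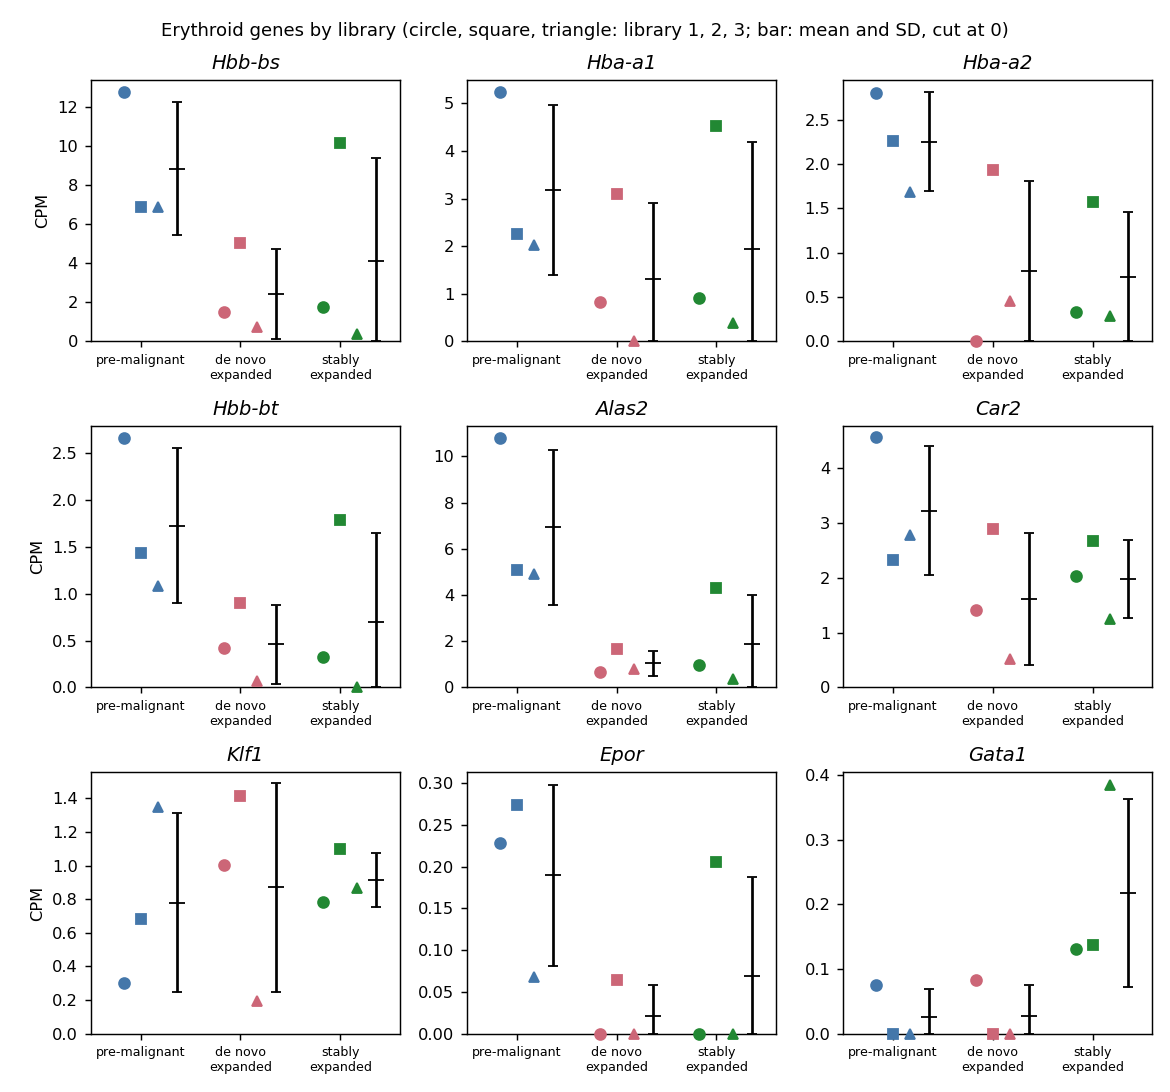
CPM of each of the 9 genes (vertical axes, each with its own range from 0) in the pre-malignant, de novo expanded and stably expanded libraries, with circle, square and triangle for libraries 1, 2 and 3 and a bar for the group mean and SD. The 4 hemoglobin genes and Alas2 are low in libraries 1 and 3 of both expanded groups, while library 2 of the stably expanded group reaches 10.1 CPM of Hbb-bs.

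Hbb-bs and Hbb-bt encode the adult beta chains of the C57BL/6 haplotype and lie on chromosome 7 (103826534 to 103828096 and 103812524 to 103813996, minus strand). Hbb-bs had 168, 100 and 102 reads in pre-malignant libraries 1, 2 and 3, 18, 78 and 11 in de novo expanded libraries, and 27, 148 and 4 in stably expanded libraries. Every pre-malignant library held more than any de novo expanded library, also as CPM (6.85 to 12.7 against 0.718 to 5.02), but stably expanded library 2, at 10.1 CPM, lay inside the pre-malignant range. The gap within the stably expanded group was beyond counting error, since the 95% Poisson intervals were 125 to 174 reads in library 2, 17.8 to 39.3 in library 1 and 1.09 to 10.2 in library 3. Hbb-bt followed with 35, 21 and 16 reads, 5, 14 and 1 reads, and 5, 26 and 0 reads. It showed the same high library 2 in both expanded groups, and its share of the beta reads changed little. Hbb-bs took 83.7% of the pooled beta reads in the pre-malignant group, 84.3% in de novo expanded and 85.2% in the stably expanded group.

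Hba-a1 and Hba-a2 encode the adult alpha chain and lie on chromosome 11 (32283511 to 32284465 and 32296489 to 32297298, plus strand). Hba-a1 had 69, 33 and 30 reads in pre-malignant libraries, 10, 48 and 0 in de novo expanded and 14, 66 and 4 in stably expanded libraries. Library 2 of both expanded groups thus lay within the pre-malignant range of 2.03 to 5.24 CPM, at 3.09 and 4.52 CPM. Hba-a2 had 37, 33 and 25 reads, 0, 30 and 7 reads, and 5, 23 and 3 reads. Its pre-malignant libraries, at 1.69 to 2.81 CPM, stayed above all stably expanded libraries, the highest of which was at 1.58, but overlapped de novo expanded library 2 at 1.93. In de novo expanded library 1 all 10 alpha reads were on Hba-a1, and in library 3 all 7 were on Hba-a2. Pooled by group, Hba-a1 took 58.1%, 61.1% and 73.0% of the alpha reads in the pre-malignant, de novo expanded and stably expanded groups.

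Summed over the 4 genes, hemoglobin reads numbered 309, 187 and 173 in pre-malignant libraries, 33, 170 and 19 in de novo expanded and 51, 263 and 11 in stably expanded libraries. As CPM the sums were 23.4, 12.8 and 11.7, then 2.75, 10.9 and 1.24, then 3.33, 18.0 and 1.06. The group means were 16.0 ± 6.49 CPM (SD, n = 3), 4.98 ± 5.21 and 7.47 ± 9.21. In both expanded groups the SD exceeded the mean, and without library 2 the mean was 2.00 CPM in de novo expanded and 2.19 CPM in the stably expanded group. Within the stably expanded group, which is 1 clone, library 2 stood far above the other two. The balance of chains moved less, though its level depends on how reads shared by both copies were counted. Alpha reads were 34.3%, 35.3% and 31.8% of hemoglobin reads in pre-malignant libraries, 30.3%, 45.9% and 36.8% in de novo expanded and 37.3%, 33.8% and 63.6% in stably expanded libraries. The Wilson 95% interval of the last, 7 of 11 reads, ran from 35.4 to 84.8%, and that of de novo expanded library 2 from 38.6 to 53.4%, overlapping those of the pre-malignant group, whose upper bounds were 39.1 to 42.4%. The cells from which these reads came were not determined. In bulk RNA, fewer such cells in a library and less RNA per cell cannot be told apart.

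Alas2, on chromosome X (150547375 to 150570638, plus strand), encodes the erythroid form of the first and rate-limiting enzyme of heme synthesis. Its reads numbered 142, 74 and 73 in pre-malignant libraries, 8, 26 and 12 in de novo expanded and 15, 63 and 4 in stably expanded libraries. As CPM these were 10.8, 5.07 and 4.93, then 0.668, 1.67 and 0.784, then 0.979, 4.32 and 0.385. Alas2 was the one gene of the 9 whose pre-malignant libraries lay above all 6 expanded libraries. Stably expanded library 2 came close to them. Per 100 hemoglobin reads of the same library there were 46.0, 39.6 and 42.2 Alas2 reads in the pre-malignant group, 24.2, 15.3 and 63.2 in de novo expanded and 29.4, 24.0 and 36.4 in the stably expanded group. Pooled, these were 43.2, 20.7 and 25.2. The value of 63.2 rests on 12 Alas2 and 19 hemoglobin reads. The 2 libraries with many hemoglobin reads outside the pre-malignant group, de novo expanded 2 and stably expanded 2, thus had fewer Alas2 reads for their hemoglobin than each pre-malignant library.

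**Figure D2:**
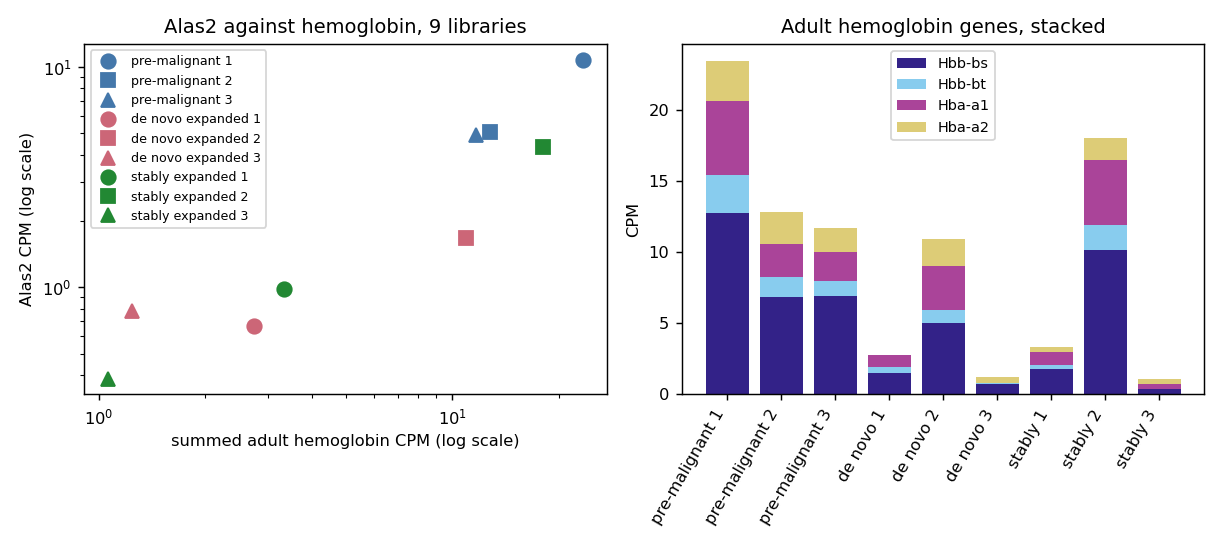
Left, Alas2 CPM (vertical, log scale) against the summed CPM of the 4 adult hemoglobin genes (horizontal, log scale) in 9 libraries; right, CPM of the 4 genes stacked by library. Both measures are highest in pre-malignant library 1 (10.8 and 23.4 CPM) and lowest in stably expanded library 3 (0.385 and 1.06 CPM), and library 2 of each expanded group stands above its neighbours in hemoglobin.

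Over the 9 libraries, log2(CPM + 1) of Alas2 and of the hemoglobin sum had a Pearson correlation of 0.92, given without a p since the libraries share groups and depth. The same measure was 0.95 between Hba-a1 and Hbb-bs, 0.83 between Hba-a1 and Hba-a2, and 0.89 between Alas2 and Hba-a2. Car2 was at 0.94 with Hba-a1 and 0.78 with Hba-a2. Genes at such counts carry much counting error, and the correlations contain the group differences.

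Car2 encodes the fast cytosolic carbonic anhydrase that red cells use for carbon dioxide transport, and it is also made by other cells, osteoclasts among them. On chromosome 3 (14886273 to 14900770, plus strand) it had 60, 34 and 41 reads in pre-malignant libraries, 17, 45 and 8 in de novo expanded and 31, 39 and 13 in stably expanded libraries. The 3 groups overlapped, with ranges of 2.33 to 4.55, 0.522 to 2.89 and 1.25 to 2.67 CPM. Library 2 was again the highest of each expanded group, but in the stably expanded group it exceeded library 1 only slightly, at 2.67 against 2.02 CPM.

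Klf1, Epor and Gata1 had the lowest mean RPKM of the 9 genes. Of these only Klf1 passed the limit on low counts of the comparisons below, by a small margin. Klf1, a zinc finger activator of the adult beta globin gene, lies on chromosome 8 (84901928 to 84905295, plus strand) and had 4, 10 and 20 reads in pre-malignant libraries, 12, 22 and 3 in de novo expanded and 12, 16 and 9 in stably expanded libraries. Its mean CPM was 0.780 ± 0.530 (SD, n = 3), 0.871 ± 0.620 and 0.915 ± 0.162. Pre-malignant library 1, the highest in hemoglobin, was the lowest of its group in Klf1. Gata1, the central erythroid and megakaryocytic transcription factor (chromosome X, 7959260 to 7978071, minus strand), had 1, 0 and 0 reads, 1, 0 and 0 reads, and 2, 2 and 4 reads. Only stably expanded library 3, the library with the fewest hemoglobin reads, passed the limit of 3 reads for Gata1. Epor (chromosome 9, 21958897 to 21963506, minus strand) had 3, 4 and 1 reads, 0, 1 and 0 reads, and 0, 3 and 0 reads, so that only pre-malignant library 2 passed that limit. Gata1 reads were most numerous in the stably expanded libraries, at counts of 4 or fewer. No fold change is given for Gata1 or Epor, whose counts were too low to enter the tests, so a difference was not tested.

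For the differences between groups, limma was fitted to log2(normalized count + 1), a normalized count being a read count divided by the size factor of its library. Genes entered a comparison when their normalized count averaged 10 or more over its 6 libraries. Those with an adjusted p under 0.05 and at least a 2-fold change were called. Of the 9 genes, 7 entered the comparisons with the pre-malignant group and 6 that between the expanded groups; Gata1 and Epor entered none, and Hbb-bt was left out of the last with a mean of 7.79. Nearest above the limit were Hba-a2 at 10.3 in the last comparison and Klf1 at 11.5, 11.5 and 12.1. Hbb-bt and Hba-a2 passed in part only through the pre-malignant group. Hbb-bt averaged 6.46 in de novo expanded against 24.1 in pre-malignant libraries. In stably expanded against pre-malignant libraries, Hbb-bt averaged 9.38 against 23.4 and Hba-a2 9.80 against 30.6. They are kept in the medians and counts below.

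Between de novo expanded and pre-malignant libraries, the log2 difference was -2.65 (SE 0.48) for Alas2, -2.19 (SE 0.66) for Hbb-bs, -2.05 (SE 0.78) for Hbb-bt, -2.32 (SE 1.27) for Hba-a1, -2.42 (SE 1.11) for Hba-a2, -1.18 (SE 0.61) for Car2 and 0.04 (SE 0.81) for Klf1. The median of the 7 was -2.19, beside 0.01 over the 14195 genes tested, of which 4.09% were at least 2-fold lower. None of the 7 was called, in a comparison where limma called 0.0% of the genes tested and 1597 had an unadjusted p under 0.05. DESeq2 on the recovered reads called 62 genes, Alas2 among them, and edgeR 0. Alas2 was also called without de novo expanded library 3, at -2.52, in a fit that called 214 of 14224 genes. The alpha genes rested on libraries at 0 reads: Hba-a1 was at -0.80 without de novo expanded library 3 and Hba-a2 at -1.13 without library 1, and edgeR gave -1.28 and -1.47. Without library 2 they were at -3.53 each. The beta genes and Car2 were nearest to 0 without library 3, with Hbb-bs at -1.58, Hbb-bt at -1.28 and Car2 at -0.58, and furthest without library 2, at -2.91, -2.69 and -1.73. For 3 of the 7, Alas2, Hbb-bs and Hbb-bt, all de novo expanded libraries were below all pre-malignant ones, which was so for 8.5% of all genes tested. Of the 3, Hbb-bt passed the limit on low counts only through the pre-malignant group. As the genes were chosen with these values in view, nothing is read from the counts of genes called or not overlapping.

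Against the pre-malignant group, the stably expanded libraries had log2 differences of -2.34 (SE 0.69) for Alas2, -2.05 (SE 0.85) for Hbb-bs, -2.15 (SE 0.99) for Hbb-bt, -1.21 (SE 0.74) for Hba-a1, -1.87 (SE 0.62) for Hba-a2, -0.68 (SE 0.42) for Car2 and 0.41 (SE 0.61) for Klf1. The median was -1.87, beside 0.00 over 13968 genes, of which 6.17% were at least 2-fold lower. Again none was called by limma, which called 2.75% of all genes here. For 2 of the 7, Alas2 and Hba-a2, the groups did not overlap, as for 14.6% of all genes in that direction. Of the 2, Hba-a2 passed the limit on low counts only through the pre-malignant group. Single libraries moved the log2 differences both ways. Without stably expanded library 3 the difference was -1.61 for Alas2, -0.98 for Hbb-bs, -0.97 for Hbb-bt, -0.48 for Hba-a1 and -1.50 for Hba-a2, and none was called. Without library 2 it was -3.22 for Alas2, -3.20 for Hbb-bs, -3.29 for Hbb-bt, -2.12 for Hba-a1 and -2.56 for Hba-a2, with Alas2, Hbb-bs and Hba-a2 called. By edgeR and DESeq2, Hbb-bs was at -1.10 and -1.14 and Hbb-bt at -1.25 and -1.30. Alas2 was called by DESeq2 too, and Alas2 and Hbb-bs without the limit on low counts. Of all genes tested, DESeq2 called 531 of 13968. Limma called 525 of 40665 without the limit on low counts, and 452 of 13981 when stably expanded library 2 was left out. Both comparisons with the pre-malignant group share its libraries and are not independent of each other.

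Stably and de novo expanded libraries differed less in these genes than their libraries did among themselves. The log2 differences were 0.32 (SE 0.84) for Alas2, 0.15 (SE 1.15) for Hbb-bs, 1.11 (SE 1.43) for Hba-a1, 0.54 (SE 1.24) for Hba-a2, 0.52 (SE 0.63) for Car2 and 0.38 (SE 0.70) for Klf1. Their median was 0.45, beside 0.00 over 13758 genes. None was called, as limma called 0.00727% of all genes and 664 had an unadjusted p under 0.05. All 6 overlapped between the groups, whereas 9.61% of all genes did not. Each of the 6 turned sign when 1 library was left out: Alas2 was at -0.55 without stably expanded library 2, Hbb-bs at -0.45, Hba-a1 at -0.39, Car2 at -0.08 and Klf1 at -0.35 without de novo expanded library 3, and Hba-a2 at -0.73 without de novo expanded library 1.

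**Figure D3:**
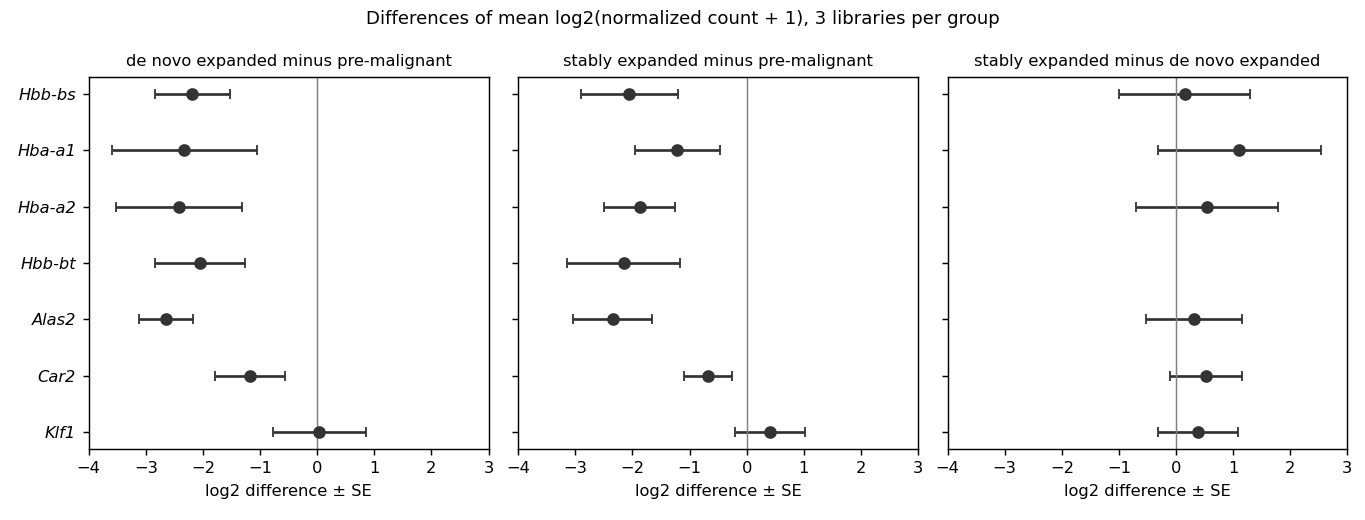
Differences of mean log2(normalized count + 1) with their SE (horizontal axes) for the 7 genes that passed the limit on low values, in 3 comparisons with 3 libraries per group. Both comparisons with the pre-malignant group lie below 0 for all genes but Klf1, at 0.04 and 0.41, and those between the expanded groups lie within 1 SE of 0, with Hbb-bt not tested there.

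The rest of the erythroid pathway was taken from 8 lists of 88 genes that exclude these 9. Of the 88, 87 were matched by symbol and Ahsp was not analysed here. Entering the tests were 55, 55 and 52 of them in the 3 comparisons, in the order above. Limma called 0, 1 and 0, beside the shares of all genes of 0.0%, 2.75% and 0.00727%, and 4, 18 and 1 had an unadjusted p under 0.05. With edgeR the calls numbered 0, 1 and 0, and with DESeq2 0, 2 and 0. The median differences, 0.01, -0.02 and 0.06, were close to those of all genes.

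The globins of the embryo and other minor globins were at 3 reads or fewer in every library. Hbb-y, Hbb-bh1 and Hbb-bh2, of the embryonic beta cluster, had 0 reads in all 9, and Hba-x, the embryonic alpha-like gene, had 1, 2 and 3 reads in pre-malignant libraries and 1 in de novo expanded library 1. The hemoglobin reads thus lay on the adult genes.

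Of the structural genes of the red cell membrane, 9, 8 and 8 of 17 were tested and none was called, with medians of -1.29, -0.78 and 0.43. Slc4a1, the band 3 anion exchanger, had 275, 88 and 152 reads in pre-malignant libraries, 13, 85 and 16 in de novo expanded and 71, 123 and 26 in stably expanded libraries. It thus had a high library 2 in both expanded groups, as the hemoglobin genes had. Its log2 difference was -2.49 (SE 0.71) in de novo expanded and -1.22 (SE 0.48) in stably expanded libraries against the pre-malignant ones, with adjusted p by limma of 0.38 and 0.144, and 1.29 (SE 0.71) between the expanded groups. Of the genes tested in this list, Slc4a1 had the largest difference in the first and last comparisons, and Dmtn, an actin-bundling protein of the red cell skeleton, in the second, at -1.49 (SE 0.58, adjusted p by limma 0.138).

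Heme synthesis genes other than Alas2 were well expressed, and none differed by 2-fold in any comparison. All 11 were tested, none was called, and the medians were 0.04, 0.17 and 0.09. Alas1, the form of the first enzyme found in most cells, had 5214, 5380 and 6636 reads in pre-malignant libraries, 2734, 4386 and 7889 in de novo expanded and 8673, 6386 and 4882 in stably expanded libraries. Its groups overlapped throughout, and its difference was largest between the expanded groups, at 0.61 (SE 0.29). Uros, the uroporphyrinogen synthase, had the largest difference of the first comparison at -0.39 (SE 0.21), and Abcb10, a mitochondrial transporter of the heme pathway, that of the second at 0.70 (SE 0.15, adjusted p by limma 0.019), below the 2-fold limit. In the second comparison 8 of the 11 were higher and 3 lower. Abcb10 and Fech were the 2 with an adjusted p by limma under 0.05. Fech was higher by 0.54 (SE 0.11, adjusted p by limma 0.021), with no overlap between the groups. Both went against the direction of Alas2.

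Among the 12 genes of erythroid transcription, 9 were tested in each comparison, with medians of 0.07, 0.09 and -0.03. Bcl11a, a repressor of embryonic and fetal globin genes that is also needed for B cells, was the only pathway gene called, lower in stably expanded than in pre-malignant libraries by -1.90 (SE 0.49, adjusted p by limma 0.042). Its reads numbered 43, 39 and 21 in the pre-malignant, 64, 63 and 9 in de novo expanded and 7, 10 and 6 in stably expanded libraries. Its normalized counts averaged 33.3 in pre-malignant and 7.78 in stably expanded libraries. It thus passed the limit on low counts only through the pre-malignant group. The call was lost in all 6 fits that left out 1 library, at adjusted p by limma of 0.053 to 0.163, and in the fit of all 9 libraries at 0.201. Tal1, a partner of Gata1, had at most 9 reads in any library. Klf3, at 0.36 (SE 0.22), had the largest difference of the first comparison, and Bcl11a, at -1.93 (SE 0.79), that of the last.

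In iron and heme handling, 10 of 10 genes were tested and none was called. Tfrc, the transferrin receptor that brings iron into dividing and heme-making cells, had 872, 1095 and 861 reads in pre-malignant libraries, 1076, 1722 and 1919 in de novo expanded and 1472, 1965 and 1286 in stably expanded libraries. It was higher in the stably expanded than in pre-malignant libraries by 0.83 (SE 0.14, adjusted p by limma 0.0087), short of 2-fold, so it went against the direction of the hemoglobin genes. Slc40a1, the iron exporter ferroportin, had the largest difference of the other comparisons, -1.30 (SE 1.11) and 2.01 (SE 0.93).

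The remaining lists held few tested genes with large differences and no call. Among EPO signaling genes, Erfe, the erythroferrone that erythroblasts release, had the largest difference of the first 2 comparisons, 0.86 (SE 0.62) and 1.55 (SE 0.59), and Socs2, an inhibitor of cytokine signaling, that of the last at -1.69 (SE 1.69). Of the other carbonic anhydrases Car15 led the first 2 comparisons at -1.04 (SE 0.66) and -1.69 (SE 0.69) and Car12 the last at -0.90 (SE 0.77), while Car1, a carbonic anhydrase abundant in red cells, had 14 reads in stably expanded library 2 and at most 2 elsewhere. Trim10, an erythroid ubiquitin ligase, was at -2.33 (SE 1.00) and -1.53 (SE 0.52), and Bnip3l, which removes mitochondria from maturing red cells, at 0.31 (SE 0.29) between the expanded groups.

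**Figure D4:**
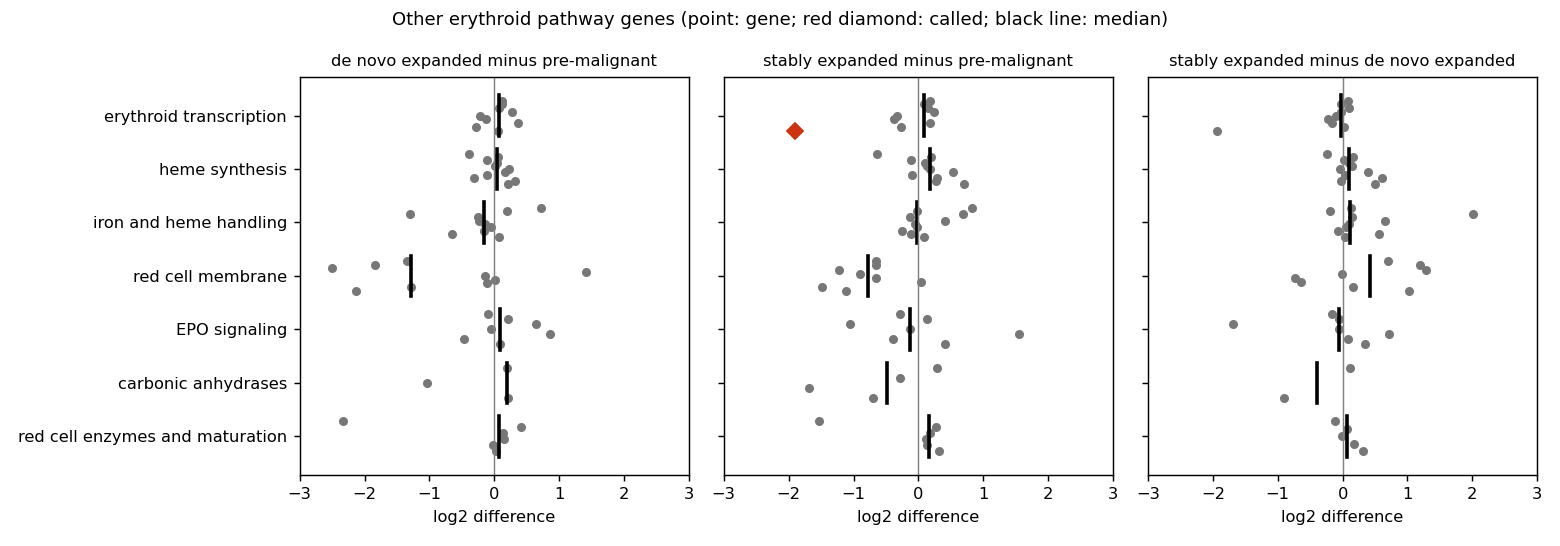
Log2 differences (horizontal axes) of the tested genes of 7 erythroid pathway lists in 3 comparisons, each point 1 gene, a red diamond a called gene and a black line the list's median. The red cell membrane list has medians of -1.29 and -0.78 against the pre-malignant group, no heme synthesis gene reaches 2-fold, and Bcl11a at -1.90 is the one call.

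Markers of other blood cells were measured in the same libraries, and their part in the hemoglobin levels was not tested. All 6 B cell markers had negative log2 differences between the de novo expanded and the pre-malignant group, with none called. Between the stably expanded and the pre-malignant group, 5 were lower and 1 was higher, with Ms4a1, Pax5 and Ebf1 called lower. Limma called 2.75% of all genes tested in that comparison. The summed level of the 6 markers was 15.0 to 20.8 CPM in the pre-malignant, 7.52 to 12.7 in de novo expanded and 11.1 to 19.3 in stably expanded libraries. Stably expanded library 2, high in hemoglobin, had 3 reads of Ms4a1, 9 of Pax5 and 142 of Cd79b. Platelet markers were scarce, with Ppbp, Gp1bb and Treml1 at 0 in all 9 libraries and a summed level of the 11 markers of 3.72 to 4.24 CPM, 2.09 to 3.28 and 2.15 to 3.76. Red pulp macrophage markers summed to 75.9 to 101, 52.7 to 79.4 and 81.9 to 93.9 CPM, of which most was Adgre1, while C1qa and Cd5l had at most 6 reads in any library. The 6 T cell markers summed to 1.82 to 2.88, 0.643 to 2.34 and 0.522 to 2.12 CPM. Of the mast cell, basophil and eosinophil markers, Prg2 and Prg3 were called higher in stably expanded than in pre-malignant libraries, and the 11 summed to 49.2 to 74.5, 18.9 to 170 and 90.8 to 174 CPM. The number of genes with a read was 27896 to 30548 in pre-malignant libraries, 23537 to 27989 in de novo expanded and 21618 to 27067 in stably expanded libraries. In the stably expanded group the highest value was that of library 2. In the de novo expanded group it was that of library 1, and library 2 had 24037. The part of this number in the differences was likewise not tested.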

How the data were processed

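RNA of 9 sorted samples was made into stranded total RNA libraries with 13 PCR cycles, and reads were not collapsed by molecular identifiers as far as stated. According to the methods and the submitters' processing notes, the authors used Trim Galore 0.6.4, STAR 2.6.1d and featureCounts 1.6.4 on GRCm38.p6 with GENCODE annotation; the strand setting is not given in the sources used here. The deposited values are read counts scaled by the authors with size factors of DESeq2 (a signal, 1 table per pair of groups). The tables also hold the authors' own log2 fold changes, p-values, adjusted p-values and Wald score, which were not used. Whole reads were recovered for at least 99.995% of nonzero values within 0.05 reads, and were identical in both tables that hold a library. CPM and RPKM were computed from them with the listed gene lengths.

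The test was limma 3.58.1 in R 4.3.3, with the trend option, on log2(normalized count + 1), two-sided, with Benjamini-Hochberg adjustment over all genes with a mean of at least 10; p-values measure only the spread between these libraries. On simulated data with 200 changed genes it recovered 146 of 196 tested (de novo expanded against pre-malignant), 157 of 191 (stably expanded against pre-malignant) and 153 of 194 (between the expanded groups), with 11, 8 and 13 false calls. All changed genes were given the same factor, larger than the 2-fold limit, and no mouse or clone effect was simulated. Recovery of smaller changes was not measured. Alternatives were edgeR 4.0.16, DESeq2 1.42.0, other pseudocounts and filters, a fit of all 9 libraries and leaving out each library. Members and lists were chosen with earlier results of these data known. Named were the 9 genes, the pathway genes called, and the tested gene with the largest difference of each list; others named were chosen after their values were seen. Some list genes and a design detail are not reported here.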

Additional observations from a re-analysis of the deposited data

How the results depend on the processing

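Between de novo expanded and pre-malignant libraries, 0 genes were called, against 5 with no filter on low values, 62 with DESeq2 and 5 in the fit of all 9 libraries, and 0 to 214 when 1 library was left out, the 214 without de novo expanded library 3. Between stably expanded and pre-malignant libraries, 384 were called, against 525 with no filter on low values, 531 with DESeq2 and 6 in the fit of all 9 libraries. When 1 library was left out, 206 to 452 were called, with 206 to 240 without any 1 pre-malignant library or without stably expanded library 1. Between the expanded groups, 1 was called, against 2 with no filter, 32 with DESeq2, 2 in the fit of all 9 libraries and 0 to 508 when 1 was left out, 0 without any 1 stably expanded library, 2 without de novo expanded library 1 and 508 without de novo expanded library 3. Of the pathway genes 0, 1 and 0 were called in the 3 comparisons. The 1 became 0 when genes needed a mean of 50 and in the fit of all 9 libraries, 2 with DESeq2 (Bcl11a and Slc4a1) and 0 to 1 when 1 library was left out, the 1 being Gypc without stably expanded library 2; the other counts became 0 to 1 and 0 to 4 when 1 was left out, the highest without de novo expanded library 3 (Socs2, and Bcl11a, Car12, Slc40a1 and Socs2). The causes were not tested. Of the 9 genes, 7, 7 and 6 entered the comparisons of de novo expanded with pre-malignant, stably expanded with pre-malignant, and stably with de novo expanded libraries. For these, 83 of 85, 85 of 86 and 61 of 70 alternative values kept the sign. Against the pre-malignant group the values that turned were those of Klf1, at -0.44 and -0.21 in the first comparison and -0.07 in the second. No paired analysis was possible because the columns carry no clone, mouse or replicate number. Low counts limit all values of Gata1, Epor, Klf1 and Hbb-bt.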

Other observations

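The genes whose levels were most like those of the erythroid genes were sought over the 9 libraries, leaving out the 9 genes themselves, some of which were more alike (Hba-a1 and Hbb-bs at 0.95, Hba-a1 and Car2 at 0.94), among 13077 genes with a mean of at least 1 CPM and by Pearson correlation of log2(CPM + 1), as a description with no p. For the hemoglobin sum they were Slc25a43 (0.94), Zswim4 (0.94) and Serpini1 (0.94). Serpini1 and Slc25a43 also led for Hbb-bs, at 0.94 and 0.93. For Alas2 they were Gm47087 (0.95), Mbtd1 (0.95) and Nsun4 (0.94). For Hba-a2 they were Fbxl20 (0.96), Kdm3a (0.95) and Zfp113 (0.94), and for Hba-a1 Chst14 (0.93), Rsrc1 (0.92) and Wac (0.91). For Car2 they were Slc4a1 (0.93), the red cell anion exchanger, Nfkb1 (0.93) and Kif21b (0.92). With 9 points in 3 groups and 13077 genes compared, high values of this kind arise for many genes.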
